A study of Mus musculus with 6 samples.

Results

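The genes described here are the glycerol channel Aqp7 and 9 genes of triglyceride synthesis, storage and breakdown (Gpam, Agpat2, Dgat1, Dgat2, Acsl1, Plin2, Pnpla2, Lipe and Mgll). They were followed in sorted blood endothelial cells of the mouse intestine. A gene was read from a probe set that the platform annotation assigns to it alone, and 9 of the 10 genes had one, of 22180 genes with such a probe set. Acsl1, which activates long-chain fatty acids, was not analysed here. The list was chosen on values of the same arrays, with the lower Aqp7 and Dgat2 levels in knockout mice already known. The differences between the groups are therefore given for these 9 genes as a description, with no p-value. The count of them that passed the threshold used for all genes is stated beside the count or share over all genes, and is not a test of the list.

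Knockout mice (KO, Apcfl//fl; Villin-CreERT2, n = 3 arrays) carry floxed Apc and a tamoxifen-inducible Cre recombinase under control of villin sequences, so that recombination is aimed at the gut epithelium and the sorted endothelial cells are not its target. Control mice (n = 3 arrays) are labelled WT, Apcfl//fl, and no Cre is named for them. The label does not say whether all of them carry the floxed alleles. Both groups were of mixed C57BL/6 x 129 background, and the protocol, which makes no distinction between them, gives tamoxifen daily for 5 days with tissue taken on day 6. Cells were released with collagenase IV and sorted as live CD31+ cells without CD45, EpCAM or gp38, and their RNA was amplified before hybridisation to Affymetrix Mouse Gene 2.0 ST arrays. The labels call the arrays biological replicates and do not say how many mice each holds.

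Triglyceride is built on glycerol 3-phosphate: acyltransferases of the GPAT and AGPAT families add fatty acids, a phosphatase removes the phosphate, and the diacylglycerol acyltransferases DGAT1 and DGAT2 add the last fatty acid. The product is kept in droplets coated by perilipins. Breakdown runs through adipose triglyceride lipase (Pnpla2), hormone-sensitive lipase (Lipe) and monoacylglycerol lipase (Mgll) and ends in fatty acids and glycerol, which crosses membranes through aquaglyceroporins such as AQP7. AQP7 is best known from adipocytes and has also been described in capillary endothelium, while DGAT1 and DGAT2 are abundant in the enterocyte, which rebuilds dietary fat for export.

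Levels are deposited log2 values, so a difference of 1 is a doubling. A gene was tested if its mean over the 6 arrays exceeded 4.12, the level under which 90% of 1428 chemosensory receptor genes (olfactory, vomeronasal, taste) lay, which stands for background. This left 15284 genes. Arrays have no read depth, and their number limits the precision. The arrays correlated at 0.979 to 0.984 within KO and at 0.977 to 0.984 within control.

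The endothelial label matched its markers. The mean over 9 endothelial markers was 10.94 to 10.97 in KO and 10.86 to 10.89 in control, with Cdh5, Emcn and Flt1 the brightest. None of the 9 passed the limma test. Of them, 4 were below 0.05 unadjusted, beside 2512 of all 15284 genes tested. Pecam1, which encodes CD31, averaged 11.43 in both groups. Ptprc, which encodes CD45, averaged 4.14 in KO and 4.46 in control, near background. Pdpn, which encodes gp38, averaged 5.11 in KO and 5.42 in control, above background on every array.

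Transcripts of other cells differed between the groups, and control 1 stood apart. The mean over 11 enterocyte markers was 5.28, 5.69 and 5.40 in KO, against 7.05, 8.97 and 8.46 in control, and 9 of 11 fell in KO by limma, among them Fabp1 (-3.57, adjusted p = 0.00335), Fabp2 (-3.29, adjusted p = 0.00479) and Rbp2 (-3.32, adjusted p = 0.00379). Their log2 summed level was 9.34 to 9.72 in KO and 11.64 to 13.43 in control. Epcam, the epithelial marker used to remove cells in the sort, was 3.74, 3.75 and 3.81 in KO, against 3.87, 7.20 and 6.24 in control (-2.01, limma adjusted p = 0.172). Control 1 thus held the fewest enterocyte transcripts of the control arrays. Of 9 mural markers, which mark pericytes and smooth muscle, 5 fell in KO. These included Rgs5 (-0.70, adjusted p = 0.0258), Acta2 (-0.82, adjusted p = 0.0290) and Tagln (-0.70, adjusted p = 0.0113). The mural log2 summed level was 11.93 to 12.39 in KO and 12.82 to 13.07 in control. Of 6 adipocyte markers with a probe set, 4 were above background, all with a negative difference, and none passed in limma (1, Cidec, was below 0.05 unadjusted). The mean of the 4 was 5.70 to 5.81 in KO and 5.93 to 6.31 in control, without overlap, and their log2 summed level was 8.99 to 9.31 in KO and 9.11 to 9.48 in control. Cidec enters this mean and was the only marker of the 4 whose groups did not overlap. Cidec, a droplet fusion protein of adipocytes, differed by -1.12 ± 0.31 (adjusted p = 0.105), Retn by -0.22 ± 0.16 (adjusted p = 0.552), Thrsp by -0.10 ± 0.13 (adjusted p = 0.754) and Plin1 by -0.07 ± 0.17 (adjusted p = 0.894). The defining adipocyte hormone adiponectin (Adipoq) was at background, at 3.52 to 3.72 in KO and 3.50 to 4.13 in control. None of 6 T and NK cell markers passed, though 4 were below 0.05 unadjusted and the list mean was 4.40 to 4.82 in KO and 5.12 to 6.15 in control. Of the others, 1 of 5 fibroblast markers fell (Col1a2), 1 of 5 lymphatic markers rose (Lyve1, 1.13 ± 0.23, adjusted p = 0.0406), and 0 of 6 macrophage markers passed, with 0 below 0.05 unadjusted.

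Aqp7 and both DGAT genes were lower in KO, the storage and breakdown genes Plin2, Lipe and Mgll were slightly higher, and Gpam, Agpat2 and Pnpla2 overlapped between the groups. In limma, 2 of the 9 measured genes passed at an adjusted p below 0.05, Aqp7 and Dgat2, both lower. Over all 15284 genes 2.61% passed, 1.13% higher and 1.48% lower. The 3 KO arrays all lay above the 3 control arrays for 3 of the 9 genes, and for 9.79% of all genes. They all lay below for 3 genes, and for 12.3% of all genes. Since the list was chosen on this comparison, nothing is read from these counts. The median difference of the 9 genes was 0.016, beside -0.017 over all genes tested, and the range was -1.49 to 0.29.

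**Figure D1:**
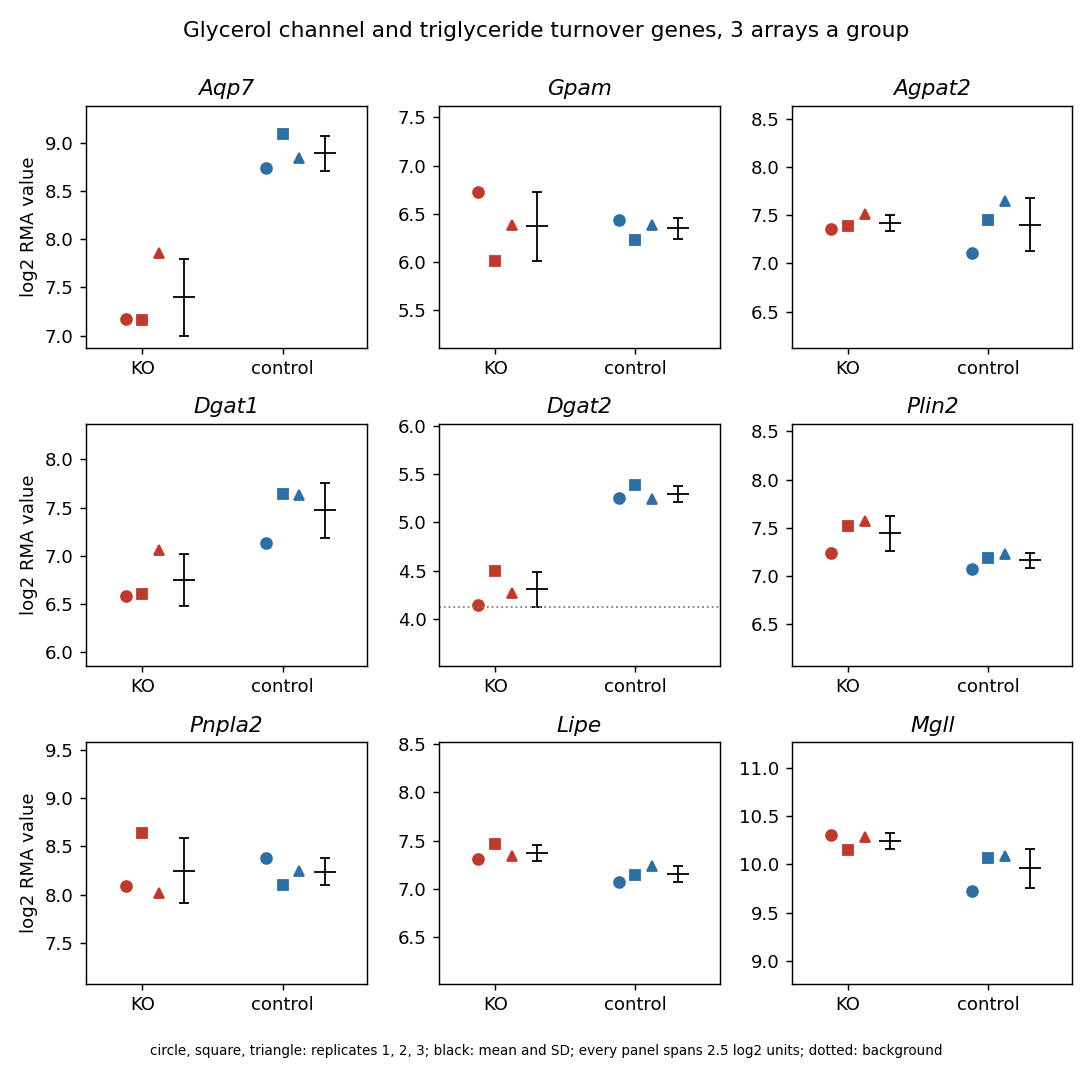
Level of each gene (log2 value, vertical axis) on the 3 KO arrays (red) and the 3 control arrays (blue), with circles, squares and triangles for replicates 1, 2 and 3 and black bars for the mean and SD; every panel spans the same log2 range. Aqp7, Dgat1 and Dgat2 are lower on all KO arrays, the Dgat2 values of KO sit just above the dotted background level of 4.12, and Gpam, Agpat2 and Pnpla2 overlap.

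Aqp7 was 7.17, 7.16 and 7.86 on the KO arrays, against 8.74, 9.09 and 8.84 on the control arrays. The groups did not overlap, and the highest KO array lay 0.88 below the lowest control array. The mean was 7.40 ± 0.40 in KO and 8.89 ± 0.18 in control (SD, n = 3 each), a difference of -1.49 ± 0.19 (SE), or 2.82-fold lower in KO. Of the 15284 genes, 78 had a more negative difference. Against control 1 alone, the array with the fewest enterocyte transcripts among the controls, the difference was -1.34. Control 1 also had the lowest Aqp7 level of the controls, 0.23 below the mean of controls 2 and 3. Bulk arrays cannot tell fewer cells of a type from less RNA per cell.

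Both Aqp7 and the enterocyte markers were low in all KO arrays. The Aqp7 difference was -1.13 ± 0.48 when the enterocyte mean entered the fit as a covariate and -2.67 ± 0.41 when the mural mean did. Both means track the groups closely (r = -0.917 and -0.941 with KO), so these fits separate group and cell content only weakly. The adipocyte list mean was also lower on every KO array, with Cidec the marker that did not overlap between the groups, while Retn, Thrsp and Plin1 overlapped and Adipoq and Lep were below background in their means. The part of enterocyte, mural or adipocyte transcripts in the Aqp7 difference was not tested further.

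**Figure D2:**
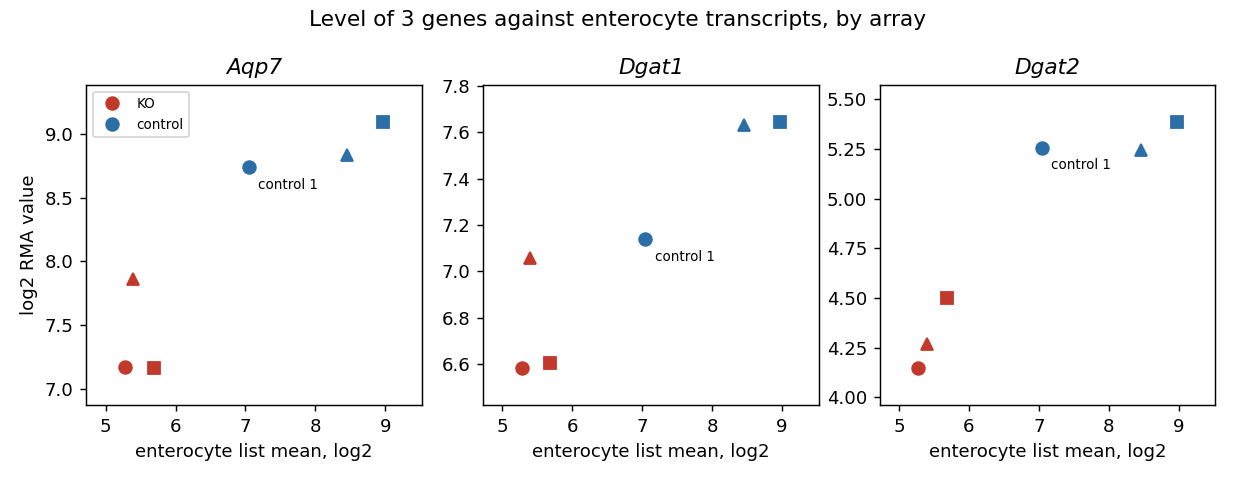
Level of Aqp7, Dgat1 and Dgat2 (log2 value, vertical axis) against the mean of the 11 enterocyte markers (log2, horizontal axis), 1 point per array, KO in red and control in blue, with the same replicate symbols. Control 1 has the lowest enterocyte mean of the control arrays, 7.05. Its Aqp7 level of 8.74 is the lowest of the controls and its Dgat2 level of 5.26 is near the other controls. Its Dgat1 level of 7.14 lies close to the highest KO array.

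The promoter window of Aqp7 is shown because it carries the half-site of nuclear receptors such as the PPARs, a family that controls fat storage genes. RefSeq windows, on the build GRCm38.p6, run from 250 bases before to 50 after a start, and 8 of the 10 genes had one, all but Dgat1 and Dgat2. The motifs were picked after the sequences had been read. The second Aqp7 start has the window chr4:41047913-41048212 on the minus strand. Capitals mark AGGTCA or its reverse complement, found at positions -223 and -101 from the start.
Aqp7: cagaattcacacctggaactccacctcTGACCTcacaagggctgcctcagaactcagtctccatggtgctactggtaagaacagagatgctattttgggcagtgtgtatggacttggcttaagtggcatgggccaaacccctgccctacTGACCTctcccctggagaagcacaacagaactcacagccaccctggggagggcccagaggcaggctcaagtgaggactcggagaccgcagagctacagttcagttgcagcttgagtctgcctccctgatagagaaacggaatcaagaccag

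The half-site is common. On either strand it occurred in 16.3% of all 32851 windows and 18.1% of the 27025 genes with a window, and in 4 of 13 windows and 3 of 8 genes here (Aqp7, Plin2 and Gpam). The windows of the first and second Aqp7 starts overlap. The site at -223 of the second is the same site as that at -49 of the first, so it counts in both windows. The direct repeat AGGTCANAGGTCA, which contains the half-site, occurred in 0.0396% of all windows and in none of these genes. A match is a run of letters, and no factor binding was measured.

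Gpam and Agpat2, the enzymes of the first and second acylation steps, showed no separation. Gpam, the mitochondrial glycerol 3-phosphate acyltransferase, was 6.72, 6.01 and 6.38 on the KO arrays, against 6.43, 6.23 and 6.38 on the control arrays. KO arrays lay on both sides of the control arrays, and the difference was 0.021 ± 0.19. Agpat2, the acyltransferase that makes phosphatidic acid, was 7.36, 7.39 and 7.51 in KO, against 7.11, 7.45 and 7.65 in control. The KO arrays lay inside the control range, and the difference was 0.016 ± 0.15. Measured against control 1, which had the lowest Agpat2 value, it was 0.31. With the enterocyte and mural covariates the differences were -0.41 ± 0.46 and 0.56 ± 0.55 for Gpam, and 0.59 ± 0.33 and -0.67 ± 0.39 for Agpat2.

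Both DGAT genes, which encode unrelated enzymes for the same final step, were lower in KO. Dgat1 was 6.58, 6.60 and 7.06 on the KO arrays, against 7.14, 7.64 and 7.63 on the control arrays. The groups did not overlap but came within 0.079 of each other, at KO 3 and control 1. The mean was 6.75 ± 0.27 in KO and 7.47 ± 0.29 in control, a difference of -0.72 ± 0.18, or 1.65-fold lower in KO. Control 1 lay 0.50 below the mean of controls 2 and 3, the arrays with the most enterocyte transcripts. Against control 1 alone the Dgat1 difference was -0.39, and in the fit with the enterocyte covariate -0.024 ± 0.41. Among the controls, the array with the fewest enterocyte transcripts thus had the lowest Dgat1 level, as it had the lowest Aqp7 level. In contrast, KO 3 had the highest Dgat1 level of the KO arrays at an enterocyte mean between those of KO 1 and KO 2. In the fit with the mural covariate the difference was -1.92 ± 0.37.

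Dgat2 was 4.15, 4.50 and 4.27 on the KO arrays, against 5.26, 5.39 and 5.24 on the control arrays. The groups did not overlap, with a gap of 0.74. The mean was 4.31 ± 0.18 in KO and 5.29 ± 0.079 in control, a difference of -0.99 ± 0.14, or 1.99-fold lower in KO. The KO values lay just above the background level of 4.12. The control arrays were close together. Against control 1 alone the Dgat2 difference was -0.95, and in the fits with the enterocyte and mural covariates -0.76 ± 0.37 and -1.21 ± 0.44.

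Plin2, the droplet coat protein perilipin 2, was slightly higher in KO. It was 7.24, 7.52 and 7.57 on the KO arrays, against 7.08, 7.19 and 7.23 on the control arrays. The groups were separated by 0.012, and the difference was 0.28 ± 0.13, or 1.21-fold. This direction was not kept in all fits: it was 0.52 ± 0.33 with the enterocyte covariate and -0.25 ± 0.35 with the mural covariate.

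Of the lipases, Lipe and Mgll lay slightly higher in KO and Pnpla2 overlapped. Pnpla2, which starts triglyceride breakdown, was 8.09, 8.64 and 8.02 in KO, against 8.38, 8.10 and 8.24 in control. KO 2 was the highest of the 6 arrays and KO 3 the lowest, and the difference was 0.0090 ± 0.16 (-0.17 ± 0.43 and 0.45 ± 0.49 with the enterocyte and mural covariates). Lipe, which cleaves diacylglycerol, was 7.31, 7.46 and 7.34 in KO, against 7.07, 7.15 and 7.24 in control. Every KO array was above every control array by at least 0.074, and the difference was 0.22 ± 0.11, or 1.16-fold (0.41 ± 0.29 and 0.073 ± 0.35 with the enterocyte and mural covariates).

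Mgll, which releases the last fatty acid and free glycerol, was 10.30, 10.15 and 10.29 in KO, against 9.73, 10.07 and 10.08 in control. The gap was 0.066, the difference was 0.29 ± 0.10, or 1.22-fold, and control 1 was the lowest array, from which the KO mean differed by 0.52. With the enterocyte covariate the Mgll difference was 0.74 ± 0.21, and with the mural covariate its sign turned, at -0.14 ± 0.28. In the fit without a covariate, the differences of Plin2, Lipe and Mgll were at most about 3 times their SE. They were smaller in size than those of Aqp7, Dgat1 and Dgat2 in that fit. With the enterocyte covariate each of them exceeded Dgat1 in size, which was then at -0.024.

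Plin2, Lipe and Mgll are shown with their promoter windows because they hold the E-box CACGTG, which occurred in 7.15% of all windows and 8.09% of genes with a window. They are 3 of the 8 genes searched, which did not include Dgat1 and Dgat2, and nothing is drawn from the match. Capitals mark the E-box and, in Plin2, the half-site. The Plin2 window is chr4:86670010-86670309 on the minus strand, with a half-site at -218 and the E-box at -4. The first Lipe start has chr7:25395938-25396237 on the minus strand, with the E-box at -155, and the first Mgll start has chr6:88724162-88724461 on the plus strand, with the E-box at -44.
Plin2: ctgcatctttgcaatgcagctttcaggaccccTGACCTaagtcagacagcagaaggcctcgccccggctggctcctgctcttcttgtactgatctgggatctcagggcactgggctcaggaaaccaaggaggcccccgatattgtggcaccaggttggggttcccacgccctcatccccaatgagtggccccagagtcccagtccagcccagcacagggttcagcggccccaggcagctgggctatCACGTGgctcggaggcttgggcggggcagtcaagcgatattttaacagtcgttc
Lipe: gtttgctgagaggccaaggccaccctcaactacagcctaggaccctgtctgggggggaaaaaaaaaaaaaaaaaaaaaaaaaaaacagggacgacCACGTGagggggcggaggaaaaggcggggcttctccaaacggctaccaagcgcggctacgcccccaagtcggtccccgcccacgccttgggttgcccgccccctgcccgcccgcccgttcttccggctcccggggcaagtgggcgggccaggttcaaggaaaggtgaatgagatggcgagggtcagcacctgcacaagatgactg
Mgll: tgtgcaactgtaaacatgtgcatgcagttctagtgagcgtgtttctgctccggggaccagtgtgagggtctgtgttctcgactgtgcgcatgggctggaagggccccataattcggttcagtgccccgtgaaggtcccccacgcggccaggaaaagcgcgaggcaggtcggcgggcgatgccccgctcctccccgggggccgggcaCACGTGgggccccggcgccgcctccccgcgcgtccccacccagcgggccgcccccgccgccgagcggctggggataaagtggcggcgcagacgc

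The E-box reads the same on both strands and is bound by several basic helix-loop-helix factors, none of which was measured here. Of the other motifs searched on both strands, the GC box GGGCGG occurred in 35.7% of all windows and 38.2% of genes, and in 8 of 13 windows and 7 of 8 genes here. TATAAA occurred in 13.6% of all windows and 15.7% of genes, and in none of the 8 genes.

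Distances between the profiles over the 6 arrays separated the lower, higher and overlapping genes only in part. After subtraction of each gene's mean, Lipe and Plin2 differed by 0.095 (root mean square, log2), Lipe and Mgll by 0.13 and Mgll and Plin2 by 0.15. Dgat1 and Dgat2 differed by 0.28, and Aqp7 and Dgat2 by 0.38. Agpat2, which overlapped between the groups, lay 0.16 from Mgll and 0.17 from Lipe. Dgat1 was nearer to Agpat2, at 0.39, than to Aqp7, at 0.41. These distances contain the group differences on which the list was chosen. The scale of a difference enters this measure, so genes with small differences lie close together.

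Among 13533 genes compared, the profile nearest to Aqp7 was that of Chchd10, a mitochondrial protein gene, at 0.16. Then came Mylpf, a myosin light chain gene, Cyp4b1, a cytochrome P450 gene, Slc26a10, and Tnnt1, a troponin gene, at 0.26 to 0.28. Their differences were -1.37, -1.13, -1.24, -1.40 and -1.20 in this order, and Mylpf exceeded background on 1 of 3 KO arrays. For Dgat2 the nearest were Gbp5, a guanylate-binding protein gene, and Cmpk2, a nucleotide kinase gene, followed by Ndrg2, Fxyd6 and Pltp, which encodes the phospholipid transfer protein. They lay at 0.12 to 0.15, with differences of -1.03, -0.94, -0.94, -1.01 and -0.92. Likeness here rests on 6 arrays in 2 groups and is a description.

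**Figure D3:**
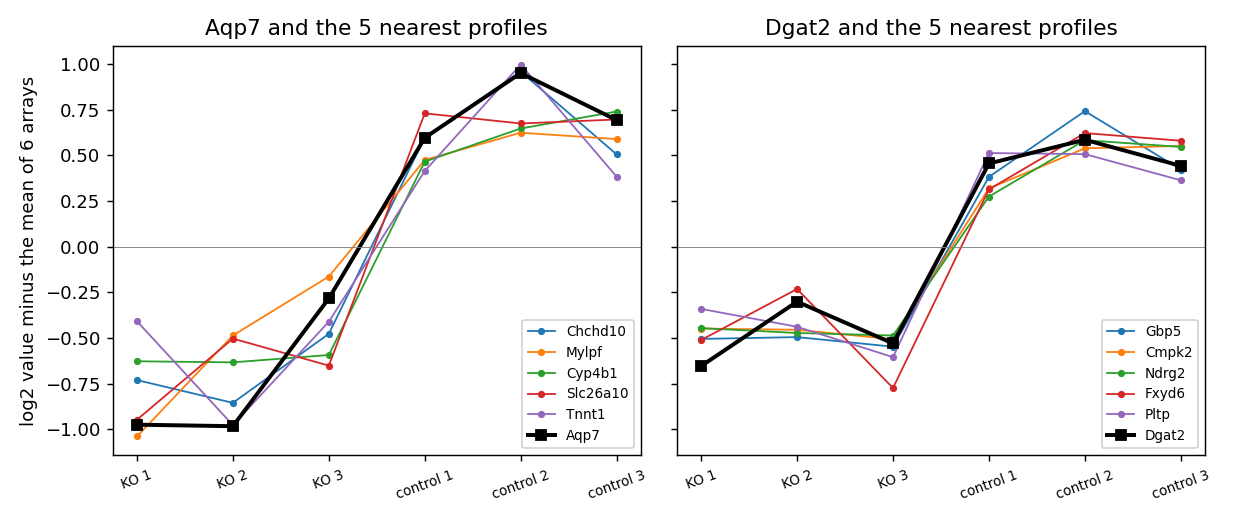
Log2 value minus the gene's mean over the 6 arrays (vertical axis) on each KO and control array (horizontal axis), for Aqp7 (left, black) and Dgat2 (right, black) with the 5 nearest profiles of each in colour; lines only join the points of a gene. All genes shown are lower on the KO arrays, and Aqp7 is higher in KO 3 than in the other KO arrays.

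The other genes of glycerol and triglyceride turnover were taken from lists by role, 88 genes of which 79 had a probe set and 69 were tested. These lists were drawn up with earlier results of the same arrays known, so their counts are not a test of the pathway. Of the 69, 4 rose and 1 fell in KO by limma, 7.25% beside 2.61% of all genes. Below 0.05 unadjusted in the same fit were 15 of the 69, beside 2512 of all 15284 genes. The same background stands beside the unadjusted counts by role below. The median difference of the 69 was -0.054. KO arrays lay all above control arrays for 10 of the 69, beside 9.79% of all genes, and all below for 12, beside 12.3%. Nothing is read from these counts. Without KO 1, KO 2, control 2 or control 3 the count that passed in limma was 2, without KO 3 it was 1, and Insr passed in all of these.

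**Figure D4:**
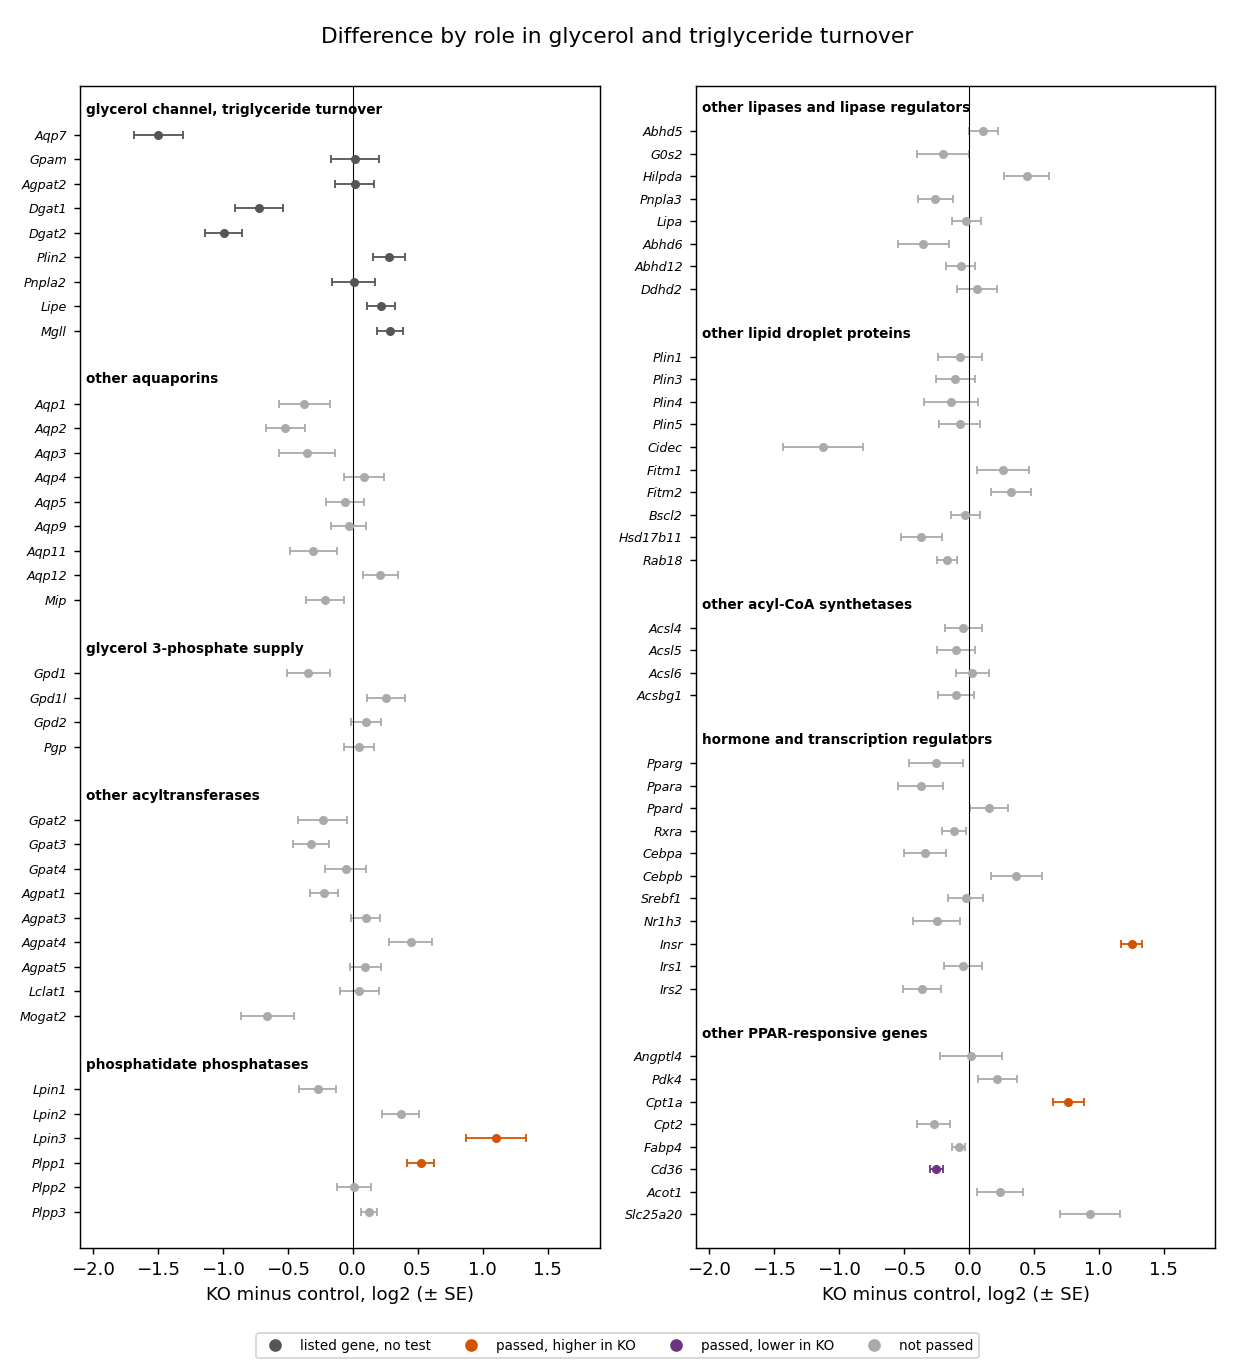
Difference between KO and control (log2, horizontal axis, with its SE) for the 9 measured genes, given as a description, and for the 69 tested pathway genes by role; orange marks genes higher and purple lower in KO at an adjusted p below 0.05, grey those that did not pass. Insr at 1.25 and Lpin3 at 1.10 lie farthest to the right, and Aqp7 at -1.49 farthest to the left.

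Insr, the insulin receptor, had the clearest rise. It was 9.86, 9.95 and 9.76 in KO, against 8.61, 8.63 and 8.57 in control. The groups lay far apart, and the difference was 1.25 ± 0.08, or 2.38-fold higher in KO (limma, adjusted p = 0.000346). It passed without each array in turn, with adjusted p between 0.000203 and 0.00383. With the enterocyte or mural mean as a covariate it did not (adjusted p = 0.152 and 0.346), although the difference stayed at 1.17 to 1.37 over all alternatives. Of the 11 tested hormone and transcription regulators Insr alone passed, and the list's median was -0.11. Pparg and Ppara were named outside the rule for the 2 brightest. Pparg, the adipogenic nuclear receptor, differed by -0.25 ± 0.21 (adjusted p = 0.615) and Ppara, which governs fatty acid oxidation, by -0.37 ± 0.17 (adjusted p = 0.327). Cebpb, the brightest regulator after Insr, differed by 0.37 ± 0.20 (adjusted p = 0.407).

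Of 6 phosphatidate phosphatases, which form diacylglycerol and related lipids, 2 rose and none fell, with a median of 0.25. Lpin3, a lipin, was 5.85, 6.58 and 6.07 in KO, against 4.69, 5.25 and 5.25 in control, a difference of 1.10 ± 0.23 (2.15-fold, limma adjusted p = 0.0409). Plpp1, a membrane lipid phosphate phosphatase, was 10.62, 10.77 and 10.99 in KO, against 10.40, 10.30 and 10.11 in control, a difference of 0.52 ± 0.11 (1.44-fold, adjusted p = 0.0400). Neither group pair overlapped. Both calls sat near the threshold: that of Lpin3 was lost without any 1 of the 6 arrays (adjusted p 0.0555 to 0.120), and that of Plpp1 without KO 2, KO 3, control 2 or control 3 (up to 0.127). Plpp1 also did not pass with arrays centred on the endothelial list (adjusted p = 0.0602) or without a variance trend (0.124), nor Lpin3 without a background filter (0.0522) or a variance trend (0.0703). With the enterocyte and mural covariates the Lpin3 difference was 2.12 and 0.20 (adjusted p = 0.253 and 1.00) and that of Plpp1 0.33 and 0.29 (0.844 and 1.00). Plpp3, the brightest of the list, differed by 0.12 ± 0.06 (adjusted p = 0.353).

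Among 8 other PPAR-responsive genes, 1 rose and 1 fell, with a median of 0.12. Cpt1a, which admits fatty acids to mitochondria for oxidation, was 8.64, 8.54 and 8.52 in KO, against 8.00, 7.81 and 7.58 in control. The difference was 0.77 ± 0.12 (1.70-fold, limma adjusted p = 0.0163), and the call was lost without KO 1, KO 2, KO 3 or control 2 (adjusted p up to 0.0623). It was also lost with the enterocyte covariate, at a difference of 0.38 (adjusted p = 0.826), and with the mural covariate, at 1.24 (0.656). Cd36, a fatty acid translocase of capillaries, was 11.72, 11.84 and 11.73 in KO, against 11.97, 12.04 and 12.02 in control. It fell by 0.25 on the log2 scale (SE 0.05, adjusted p = 0.0380), a call lost without KO 1, KO 3, control 2 or control 3 (up to 0.129). It was also lost under cyclic loess (0.0513), median centring (0.0562) and no variance trend (0.282), and with the enterocyte covariate, at -0.12 (0.904), or the mural covariate, at -0.33 (1.00). Fabp4, a fatty acid binding protein of capillaries, differed by -0.08 ± 0.05 (adjusted p = 0.497). Slc25a20, the carnitine carrier that acts next to Cpt1a and was picked after its value was seen, differed by 0.94 ± 0.23 (adjusted p = 0.0718).

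No gene of the remaining 6 lists passed in limma. The 9 other aquaporins had a median of -0.21, with 1 below 0.05 unadjusted. Aqp1, the water channel of capillaries, differed by -0.37 ± 0.20 (limma adjusted p = 0.400) and Aqp11 by -0.30 ± 0.18 (adjusted p = 0.467). The other glycerol channels Aqp3 and Aqp9, named after their values were seen, differed by -0.35 ± 0.22 (adjusted p = 0.484) and -0.03 ± 0.13 (adjusted p = 0.945). Aqp7 was thus the aquaporin with the most negative difference of those measured, and no test of Aqp7 against the others was made.

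For the supply of glycerol 3-phosphate, 4 genes had a median of 0.075 and 0 were below 0.05 unadjusted, with Pgp at 0.05 ± 0.12 (limma adjusted p = 0.887) and Gpd2 at 0.10 ± 0.12 (adjusted p = 0.729). The 9 other acyltransferases had a median of -0.054 and 3 below 0.05 unadjusted, with Agpat1 at -0.22 ± 0.11 (adjusted p = 0.359) and Agpat3 at 0.10 ± 0.11 (adjusted p = 0.721). Mogat2, the monoacylglycerol acyltransferase of enterocytes, was named after its values were seen. It was 4.62, 5.05 and 4.74 in KO, against 5.21, 5.87 and 5.30 in control (-0.66 ± 0.20, limma adjusted p = 0.147). The enterocyte list was also lower in KO, and its part in the Mogat2 difference was not tested.

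The 8 other lipases and regulators had a median of -0.039 and 1 below 0.05 unadjusted, with the lysosomal lipase Lipa at -0.02 ± 0.11 (limma adjusted p = 0.960) and Abhd5, the activator of adipose triglyceride lipase, at 0.11 ± 0.11 (adjusted p = 0.679). The 10 other lipid droplet proteins had a median of -0.083 and 2 below 0.05 unadjusted, with Rab18 at -0.17 ± 0.08 (adjusted p = 0.347) and Hsd17b11 at -0.36 ± 0.16 (adjusted p = 0.290). Cidec, which is also in the adipocyte list above and was named after its values were seen, was 4.53, 4.25 and 3.97 in KO, against 4.61, 5.91 and 5.59 in control (-1.12 ± 0.31, adjusted p = 0.105). Its control 1 value was close to KO 1, and control 1 had the lowest enterocyte mean of the controls. Control 1 also had the lowest adipocyte mean of the controls, but Cidec is itself 1 of the 4 genes in that mean. Nothing about Cidec can therefore be read from it. The 4 other acyl-CoA synthetases had a median of -0.067 and 0 below 0.05 unadjusted, with Acsl5 at -0.09 ± 0.15 (adjusted p = 0.803) and Acsl4 at -0.04 ± 0.14 (adjusted p = 0.925).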

How the data were processed

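The deposited values are on a log2 scale, 1 per probe set and array, and were made by RMA in the oligo package per the submitters' processing notes; versions are not given in the sources used here. RMA normalizes by quantiles, so a shift of all genes cannot be seen. Of 41345 probe sets, 23521 carried 1 symbol in the platform annotation, 1814 several and 16010 none, and only the first kind was used. For a gene with several, the probe set with the highest mean was taken. KO was compared with control by limma 3.58.1 in R 4.3.3 (lmFit and eBayes, trend=TRUE; two-sided; Benjamini-Hochberg over the 15284 genes above background). All 6 arrays entered, with no covariate. The script was tested on simulated data. Plotting used matplotlib 3.10.9 (Python 3.11.15).

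The genes and lists were chosen with earlier results of these data known. Text names cover every listed gene, passing pathway genes, the 2 brightest of each pathway list, the 3 brightest markers above background of each cell type list that is described in detail, with Adipoq and Cidec added, and the 5 nearest profiles to Aqp7 and Dgat2. The p-values measure the spread between arrays. The 19 alternatives covered background, scaling, variance model, block, arrays left out and covariates.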

Additional observations from a re-analysis of the deposited data

How the results depend on the processing

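Calls among the 9 genes are counts only, since the genes were chosen on these arrays. The differences of Aqp7 and Dgat1 were negative in all 19 alternatives (-2.67 to -1.13 and -1.92 to -0.024), and that of Dgat2 in all 18 that kept the gene (-1.21 to -0.76). With arrays left out in turn, 91 to 379 genes passed, beside 399 with all arrays, 1 to 3 of the 9 genes, beside 2, and 1 to 5 pathway genes, beside 5. The genes behind these counts changed too. Without control 1, Dgat1 and Cidec also passed and Lpin3 did not, and without control 2 Slc25a20 passed. Without a variance trend 139 genes and 2 pathway genes passed. With the 95th percentile as background 461 of 12325 genes passed, and 1 of the 9 did, since Dgat2 was then left out. Against control 1 alone, assumed to vary like the KO arrays, 52 genes, 0 of the 9 (3 unadjusted) and 2 pathway genes passed. With the enterocyte mean as a covariate limma gave 3 genes (1192 unadjusted), 0 of the 9 (2 unadjusted) and 0 pathway genes (4 unadjusted). With the mural mean it gave 0 genes (723 unadjusted), 0 of the 9 (3 unadjusted) and 0 pathway genes (10 unadjusted), and the median of the 9 was -0.25. Both covariates nearly coincide with the groups. The replicate block gave 394 genes, 2 of the 9 and 4 pathway genes, with Plpp1 lost (adjusted p = 0.0730). After removal of group means, arrays of the same number correlated at -0.020, -0.0077 and 0.039, and other pairs at -0.032 to 0.034. With 3 arrays a group this cannot show whether a shared number marks a pair. Centring on the endothelial list shifted the median of all genes to -0.096 and gave 572 genes. With 3 arrays a group and Dgat2 near background in KO, small differences were not resolved.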
